A study of Mus musculus with 12 samples.

Results

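The reticulocalbin and calumenin family was followed across 3 kinds of mouse cells from the cerebellum and its tumor. The family is 5 genes, Rcn1, Rcn2, Rcn3, Calu and Sdf4, of the 46517 genes in the deposited count table. They were taken by symbol, and Rcn1 heads them because earlier results of these data placed it among the most significant genes between tumor and normal groups. Differences from normal astrocytes are therefore given below as descriptions without p-values. All 5 genes passed the filter on low counts.

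Members of this family are calcium-binding proteins of the secretory pathway that carry several EF-hands, the helix-loop-helix motif that holds a calcium ion. They bind calcium with low affinity and stay in the endoplasmic reticulum (ER) or Golgi, although calumenin is also secreted. Reticulocalbins reside in the ER lumen and are kept there by a retrieval signal at the end of the protein, while the Sdf4 product, Cab45, works in the Golgi, where it helps to sort secreted cargo.

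The data were read counts from 12 libraries, made from RNA of cells cut from frozen sections by laser capture microdissection and amplified as short 3′ end cDNA. The 4 tumor-derived astrocyte libraries carry the strain label C57BL/6, and a sample sheet deposited with the counts describes them as astrocytes of the tumor. The 4 tumor GNP libraries hold granule neuron progenitors, the tumor cells of medulloblastoma. The sheet calls them cultured, although laser capture is the labelled method throughout, and their strain entries run C57BL/7, C57BL/8, C57BL/9 and C57BL/10. The 4 normal astrocyte libraries are C57BL/6 and are described in the sheet as adult astrocytes of the cerebellum. The sources used here do not give the genotype of the tumor model, the age of its mice or how cells were recognised for capture. Any difference in age or culture runs with the groups and cannot be told apart from them.

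Library totals were 8679971 to 12626596 counts for tumor-derived astrocytes, 8154401 to 8673023 for tumor GNPs and 8838441 to 11287457 for normal astrocytes. Levels are given as CPM, counts scaled to library size, after trimmed mean scaling, and because the reads come from 3′ ends they are compared within a gene and not between genes. A count of 0 allows up to 3 counts, which was 0.288 to 0.374 CPM in tumor-derived astrocytes, 0.306 to 0.324 CPM in tumor GNPs and 0.258 to 0.34 CPM in normal astrocytes, covering counting error only. Among replicate pairs, those formed by GNP libraries 1, 2 and 4 were the closest, with a chi-square per degree of freedom of 1.43 to 7.52 in those 3 pairs against 24.03 to 184.34 in the other 15 pairs. They were summed and counted as 1 sample, so GNP means have n = 2. Ribosomal protein genes held 19.57 to 22.55% of counts in tumor-derived astrocytes, 20.27 to 23.6% in tumor GNPs and 5.49 to 8.83% in normal astrocytes. Each library's title holds a number of its own, but what the number stands for is not stated. No label says which animal a library came from, and several may come from one, so p-values measure only the spread between libraries.

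The labelled cell types were set against marker genes. The 12 astrocyte markers summed to 1060 to 2300 CPM in tumor-derived astrocytes, 493 to 767 CPM in tumor GNPs and 6110 to 13200 CPM in normal astrocytes. The 10 markers of granule progenitors and dividing cells summed to 1740 to 2880 CPM in tumor-derived astrocytes, 2420 to 2530 CPM in tumor GNPs and 106 to 214 CPM in normal astrocytes, where Atoh1 and Nhlh1 were at 0. The 10 markers of Purkinje cells and mature neurons summed to 1060 to 1910 CPM in tumor-derived astrocytes, 165 to 285 CPM in tumor GNPs and 5180 to 10100 CPM in normal astrocytes. Microglia markers (10 genes) summed to 652 to 909 CPM in tumor-derived astrocytes, 1.35 to 6.81 CPM in tumor GNPs and 186 to 485 CPM in normal astrocytes, with P2ry12, Ctss, Cx3cr1 and Aif1 at 0 in GNPs. The part of these other cells in the family's values was not tested, and fewer cells of a type cannot be told apart from less RNA per cell in such bulk libraries.

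On mm10, Rcn1 lies at chr2:105386291-105399319 on the minus strand, Rcn2 at chr9:56041845-56061882 on the plus strand and Rcn3 at chr7:45082913-45092221 on the minus strand. Calu lies at chr6:29348069-29377110 and Sdf4 at chr4:155992872-156013610, both on the plus strand. Rcn3 overlaps an antisense gene, Gm45669, and the end of Calu overlaps the end of Opn1sw on the other strand, which had 0 to 44 counts per library. The sources used here do not state whether counting used strand, so reads of overlapping genes cannot be told apart. The coding sequences are of similar length, with 975 bases in 6 coding exons for Rcn1, 960 in 7 for Rcn2, 984 in 6 for Rcn3, 945 in 6 for Calu and 1083 in 6 for Sdf4.

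Promoters from RefSeq (GRCm38.p6) were matched for 4 of the 5 genes, Rcn2, Rcn3, Calu and Sdf4. The 250 bases before the RefSeq start are shown for Rcn3 and for Calu. Rcn3 had the most spread normal astrocyte libraries of the family, and the Calu libraries differed by at most 1.76-fold within a group. For both, the RefSeq start lies inside the gene as placed above. The end of each window, with its last ATTGG, is therefore annotated gene and not upstream sequence. Capitals mark CCAAT and CCACG, the ends of the ER stress element, on either strand (ATTGG and CGTGG on the other), and each sequence is 5′ to 3′ on its gene's own strand.
Rcn3, chr7:45092214-45092463, minus strand: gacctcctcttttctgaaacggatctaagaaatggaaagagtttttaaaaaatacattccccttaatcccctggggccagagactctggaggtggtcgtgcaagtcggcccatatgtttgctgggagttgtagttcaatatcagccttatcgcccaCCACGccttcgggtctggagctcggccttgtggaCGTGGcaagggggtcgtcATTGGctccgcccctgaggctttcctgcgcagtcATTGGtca
Calu, chr6:29347856-29348105, plus strand: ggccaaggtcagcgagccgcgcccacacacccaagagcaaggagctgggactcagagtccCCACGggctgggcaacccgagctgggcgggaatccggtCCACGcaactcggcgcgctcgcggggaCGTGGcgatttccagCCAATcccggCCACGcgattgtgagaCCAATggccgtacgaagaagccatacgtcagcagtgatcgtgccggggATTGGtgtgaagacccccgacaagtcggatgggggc

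The Rcn3 window held 2 matches to CCAAT and 2 to CCACG, and the Calu window held 3 and 4. CCAAT was found in 33.8% and CCACG in 28.3% of 32851 promoters of the same length. None of the family's 7 windows held the whole ER stress element, which 0.113% of promoters hold, or its second form, ER stress element II (0.0304%). Both strands were searched, and the whole elements contain the shorter letters. A missing match says only that these letters are not in the window. CpG pairs numbered 11 in the Rcn3 window and 25 in the Calu window, against a median of 6 over all promoters.

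Rcn1, the first reticulocalbin described and an ER-lumen protein, was high in both tumor groups and near the detection limit in normal astrocytes. In tumor-derived astrocytes its level was 83.8, 88.0, 92.7 and 72.1 CPM, in tumor GNPs 105, 112, 99.7 and 104 CPM, and in normal astrocytes 0.284, 0.113, 0.258 and 0.39 CPM. All 8 tumor libraries lay far above the 4 normal ones, and the tumor-derived libraries all lay below the GNP libraries. The normal values rest on 3, 1, 3 and 4 counts, 11 in all, against 2994 counts in tumor-derived astrocytes. The means were 84.1 ± 8.84 CPM in tumor-derived astrocytes (SD, n = 4), 103 ± 4.93 CPM in tumor GNPs (SD, n = 2) and 0.261 ± 0.114 CPM in normal astrocytes (SD, n = 4). The fitted log2 difference from normal was 8.29 ± 0.45 (SE) for tumor-derived astrocytes and 8.66 ± 0.47 for tumor GNPs, values the choice of Rcn1 had used.

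**Figure D1:**
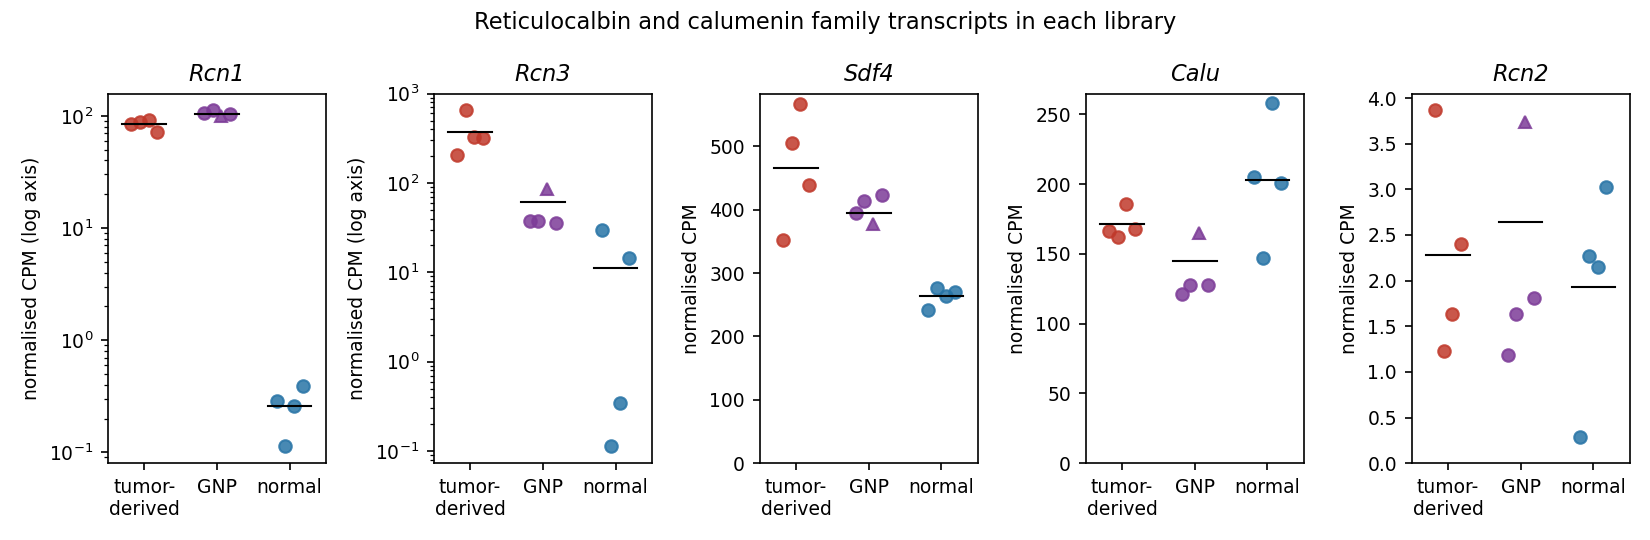
CPM of each gene of the family in every library, with 1 panel per gene (log axes for Rcn1 and Rcn3), 1 point per library, GNP replicate 3 as a triangle and a line at the group mean. Rcn1 sits at 72.1 to 92.7 CPM in tumor-derived astrocytes, 99.7 to 112 CPM in tumor GNPs and at most 0.39 CPM in normal astrocytes.

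Between the tumor groups the Rcn1 difference was small. Tumor-derived astrocytes minus tumor GNPs gave a log2 difference of -0.38 ± 0.37 (SE), with a 95% interval of -1.18 to 0.43 and an adjusted p of 0.547 in edgeR's quasi-likelihood test with Benjamini-Hochberg adjustment. The interval leaves room for a level in tumor-derived astrocytes below that in GNPs or slightly above it. This contrast shares the tumor-derived libraries with the one that singled out Rcn1.

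Rcn3, an ER protein needed for lung maturation in mouse, was highest in tumor-derived astrocytes and varied widely. The tumor-derived astrocyte libraries had 204, 651, 326 and 322 CPM, in tumor GNPs 37.9, 37.6, 86.8 and 35.7 CPM, and in normal astrocytes 29.5, 0.113, 0.344 and 14.6 CPM. The 3 groups did not overlap, but the normal libraries split between 2 with 312 and 150 counts and 2 with 1 and 4. Means were 376 ± 192 CPM in tumor-derived astrocytes (SD, n = 4), 62.0 ± 35.2 CPM in tumor GNPs (SD, n = 2) and 11.1 ± 14.0 CPM in normal astrocytes (SD, n = 4). The highest normal library was 260-fold above the lowest, against 3.18-fold in tumor-derived astrocytes and 2.43-fold in tumor GNPs.

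The log2 difference of Rcn3 from normal was 5.12 ± 1.18 (SE) for tumor-derived astrocytes and 2.57 ± 1.18 for tumor GNPs. Without normal replicate 1 these were 6.24 and 3.69, and without GNP replicate 3 the GNP difference was 1.96. Tumor-derived astrocytes minus tumor GNPs gave 2.54 ± 1.39 with a 95% interval of -0.47 to 5.56 and an adjusted p of 0.258 (edgeR), which did not pass. With all 12 libraries as separate samples the value was 2.92 and the adjusted p 0.0406, and with only these 2 groups fitted it was 2.57 and 0.00891. Without GNP replicate 3 the difference was 3.16.

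Markers of mural cells and fibroblasts, which also make secreted matrix, were set beside Rcn3. The 10 markers summed to 135, 86.2, 53.8 and 88.5 CPM in tumor-derived astrocytes 1 to 4, 4.75 to 34.0 CPM in tumor GNPs, and 48.2, 74.1, 67.2 and 45.8 CPM in normal astrocytes 1 to 4. The tumor-derived library with the highest sum had the lowest Rcn3, and the normal libraries with the most Rcn3 had the lowest sums, whereas GNP library 3 was highest in both. Lum was at 0 in tumor GNPs and Col3a1 in normal astrocytes. Endothelial markers (9 genes) summed to 166 to 259 CPM in tumor-derived astrocytes, 3.22 to 4.97 CPM in tumor GNPs and 139 to 585 CPM in normal astrocytes. The part of these cells in the Rcn3 values was not tested.

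**Figure D2:**
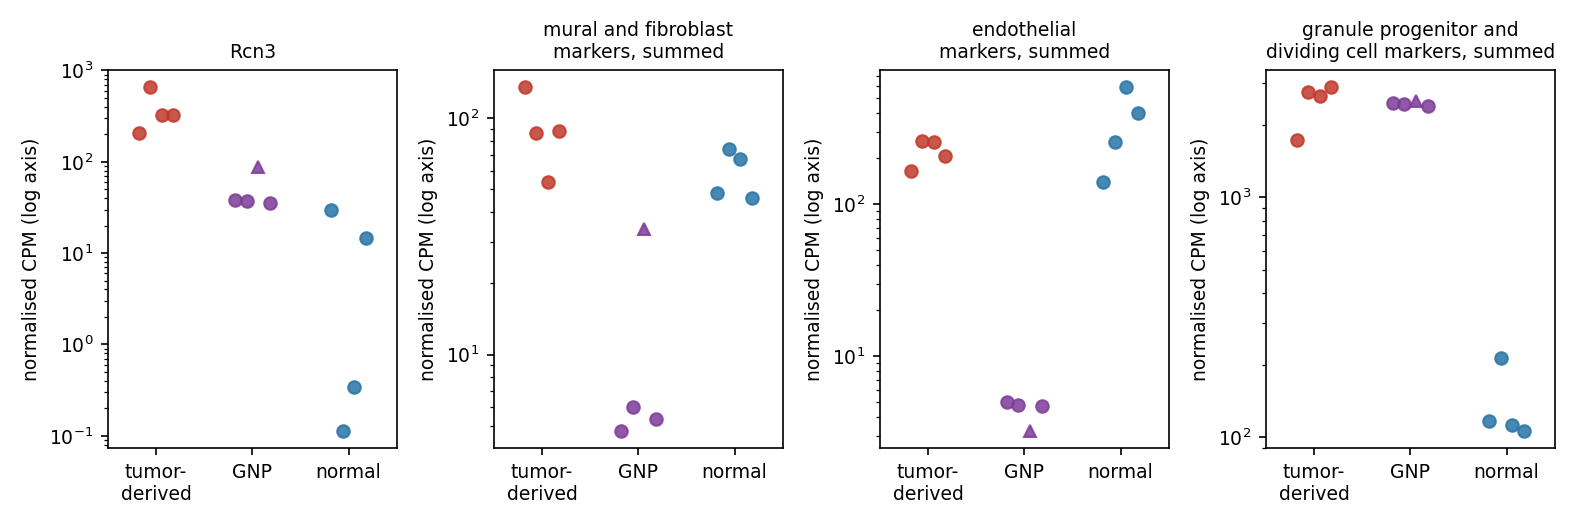
CPM of Rcn3 and summed CPM of the mural and fibroblast, endothelial, and granule progenitor and dividing cell markers, on log axes, with 1 point per library and GNP replicate 3 as a triangle. GNP replicate 3 stands above the other GNP libraries in Rcn3 (86.8 CPM) and in the mural and fibroblast sum (34.0 CPM) and lowest in the endothelial sum (3.22 CPM).

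Rcn2, an ER-resident reticulocalbin, was low everywhere. Tumor-derived astrocytes had 3.87, 1.23, 1.63 and 2.4 CPM, in tumor GNPs 1.19, 1.63, 3.74 and 1.81 CPM, and in normal astrocytes 0.284, 2.27, 2.15 and 3.02 CPM. The groups overlapped throughout, and the sums were 81 counts in tumor-derived astrocytes, 80 in tumor GNPs and 79 in normal astrocytes. Tumor-derived astrocytes minus tumor GNPs gave a log2 difference of -0.25 ± 1.11 (SE) with a 95% interval of -2.67 to 2.17 and an adjusted p of 0.915 (edgeR). The interval is wide, so the test does not show that the groups are alike. The log2 difference from normal was 0.27 ± 0.92 for tumor-derived astrocytes and 0.51 ± 1.1 for tumor GNPs. The sign of both turned with 1 library left out, over ranges of -0.14 to 0.53 and -0.13 to 0.75, and that for tumor-derived astrocytes also with library size as the only scaling.

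Calu encodes calumenin, which in rat inhibits the vitamin K dependent carboxylation of proteins, and its levels overlapped in all groups. Its values in tumor-derived astrocytes were 166, 162, 186 and 168 CPM, in tumor GNPs 121, 128, 165 and 128 CPM, and in normal astrocytes 205, 147, 258 and 201 CPM. The ranges overlapped in every pair of groups. Tumor-derived astrocytes minus tumor GNPs gave a log2 difference of 0.16 ± 0.29 (SE), a 95% interval of -0.46 to 0.78 and an adjusted p of 0.759 (edgeR). With library size as the only scaling the sign turned, to -0.20. The difference from normal was -0.22 ± 0.23 for tumor-derived astrocytes and -0.38 ± 0.29 for tumor GNPs.

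Sdf4, the Golgi member, was higher in both tumor groups than in normal astrocytes by a modest amount. In the tumor-derived libraries it stood at 352, 505, 567 and 439 CPM, in tumor GNPs 394, 414, 377 and 423 CPM, and in normal astrocytes 241, 277, 263 and 270 CPM. Every tumor library lay above every normal library, while the tumor groups overlapped. Means were 466 ± 92.0 CPM in tumor-derived astrocytes (SD, n = 4), 394 ± 23.2 CPM in tumor GNPs (SD, n = 2) and 263 ± 15.7 CPM in normal astrocytes (SD, n = 4). The log2 difference from normal was 0.85 ± 0.21 (SE) for tumor-derived astrocytes and 0.70 ± 0.25 for tumor GNPs. Tumor-derived astrocytes minus tumor GNPs gave 0.16 ± 0.26, with a 95% interval of -0.40 to 0.72 and an adjusted p of 0.737 (edgeR), and with library size as the only scaling -0.19.

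Between tumor-derived astrocytes and tumor GNPs, 0 of the 5 genes were called at an adjusted p under 0.05 in edgeR, where 9.88% of 16374 genes were (6.62% higher and 3.26% lower). With 12 separate libraries 1 was, Rcn3, against 33.0% of genes. At an unadjusted p under 0.05 the count was 0, and with DESeq2 it was 0. Rcn1 and Rcn3 had groups whose libraries did not overlap, 2 of 5, against 45.7% of all genes. Tumor-derived astrocytes did not overlap with normal astrocytes in Rcn1, Rcn3 and Sdf4, 3 of 5 genes, against 35.9% of all genes, and 32.3% of all genes were called there (17.9% higher, 14.4% lower). The same 3 genes did not overlap between tumor GNPs and normal astrocytes, against 38.2% of all genes, of which 24.1% were called (12.5% higher, 11.6% lower). Both contrasts use the same normal libraries, and Rcn1 was chosen on such a contrast, so nothing is read from these counts.

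**Figure D3:**
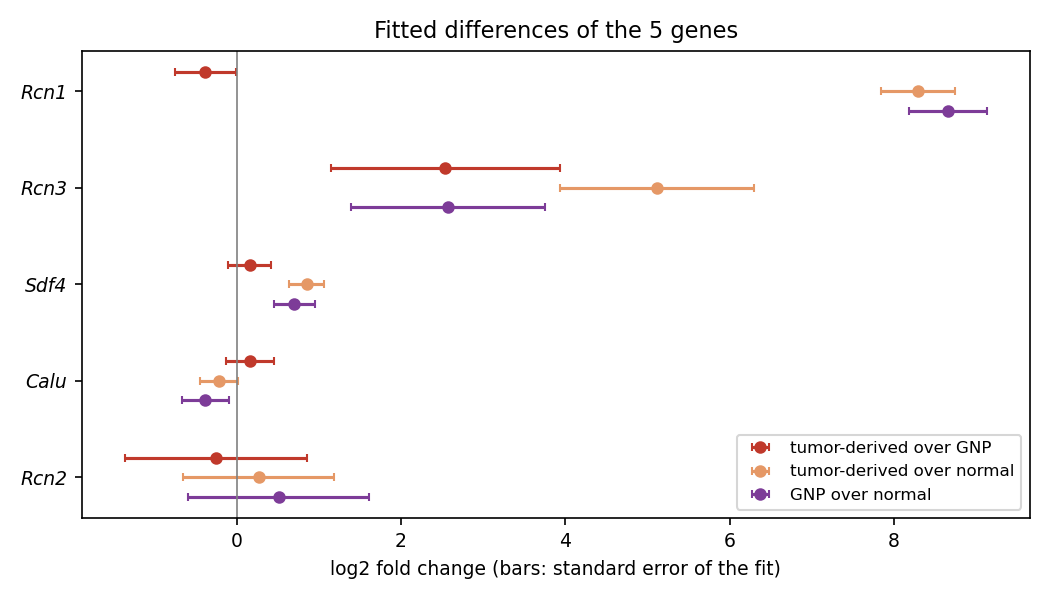
Log2 differences of the 5 genes in the 3 contrasts, with points for the fitted value and bars for its standard error. Rcn1 is at 8.29 and 8.66 above normal astrocytes in tumor-derived astrocytes and tumor GNPs, and at -0.38 between the tumor groups.

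Likeness between the genes was described by 1 measure. Over the 10 samples, the root mean square difference of log2(CPM + 1), each gene centred on its own mean, was 0.58 between Calu and Sdf4, 0.63 between Rcn2 and Calu, 0.65 between Rcn2 and Sdf4 and 1.79 between Rcn1 and Rcn3. The remaining pairs stood at 2.68 to 3.19. Calu, Sdf4 and Rcn2 varied little about their own means (0.27, 0.40 and 0.54), so the small values among them say little about likeness. The genes nearest to Rcn1 by this measure were Mxd3 (0.24), Rftn1 (0.25), Tk1 (0.29), Cdca5 (0.29) and Knstrn (0.31), where the median over all tested genes was 3.03. Rcn1 itself varied by 3.03 about its own mean, so that median repeats its own spread and says little about likeness. Most of that spread is the gap between tumor and normal libraries, which the choice of Rcn1 had used. Any gene near the detection limit in normal astrocytes and well above it in both tumor groups therefore lies near Rcn1. How many genes lie as near was not counted, and nothing is read from which ones do. Mxd3, a MAX-binding repressor, averaged 52.1 CPM in tumor-derived astrocytes, 61.5 CPM in tumor GNPs and 0 CPM in normal astrocytes. Tk1, a thymidine kinase of dividing cells, averaged 73.2 CPM in tumor-derived astrocytes, 62.4 CPM in tumor GNPs and 0.143 CPM in normal astrocytes. In the same order Rftn1 averaged 75.7, 63.9 and 0.0244 CPM, Cdca5 64.0, 99.0 and 0 CPM, and Knstrn 85.4, 150 and 0.132 CPM. Whether genes of dividing cells are common at this distance was not tested. Nearest to Rcn3, more loosely, were Nme4 (0.69), Nkd1 (0.77) and Dpysl3 (0.81), against a median of 3.06, which is also the spread of Rcn3 about its own mean. The nearest genes were Nipa1 (0.31), Gm18956 (0.32) and Aldh7a1 (0.33) for Rcn2, Atp5h (0.18), Cyc1 (0.21) and Nfrkb (0.22) for Calu, and Gm5070 (0.14) and Kctd20 (0.18) for Sdf4, where the medians over all tested genes were 1.04 for Rcn2, 0.953 for Calu and 0.96 for Sdf4. Since these 3 members vary little, their nearest values also say little. Gm5070 averaged at most 0.926 CPM and Gm18956 at most 0.918 CPM in any group, where log2(CPM + 1) flattens differences. These are descriptions over samples that share groups and scaling.

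**Figure D4:**
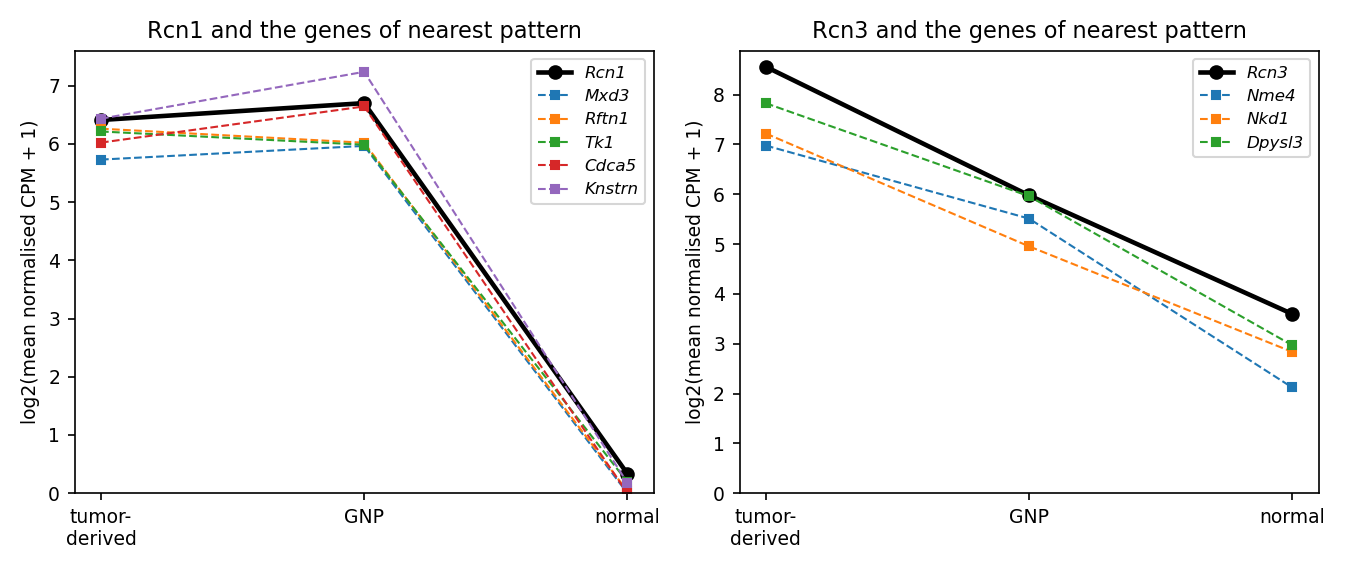
Log2 of the mean CPM + 1 in each group, for Rcn1 and its 5 nearest genes and for Rcn3 and its 3 nearest, with 1 line per gene that joins the 3 group means only as a guide. Rcn1 and its nearest genes are high in both tumor groups and near 0 in normal astrocytes, a pattern set by the choice of Rcn1 and of genes near it.

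Rcn1 and Rcn3 share the ER lumen with the folding machinery, in which more genes fell than rose in tumor-derived astrocytes. Of 20 ER chaperones and foldases, 1 rose and 4 fell against tumor GNPs (median log2 -0.92, all genes 0.06), and 3 rose and 7 fell against normal astrocytes (median -0.93, all genes 0.11), edgeR at an adjusted p under 0.05. Over all genes 6.62% rose and 3.26% fell against tumor GNPs, and 17.9% rose and 14.4% fell against normal astrocytes. These shares stand beside the counts of this list and of those that follow. Hspa5, the main ER chaperone BiP, averaged 84.5 ± 16.6 CPM in tumor-derived astrocytes (SD, n = 4), 227 ± 75.5 CPM in tumor GNPs (SD, n = 2) and 386 ± 64.1 CPM in normal astrocytes (SD, n = 4). Its adjusted p was 0.00913 against GNPs and 0.000107 against normal astrocytes (edgeR). Hsp90b1, the ER member of the HSP90 chaperones, averaged 38.9 ± 11.9 CPM in tumor-derived astrocytes, 113 ± 2.95 CPM in tumor GNPs and 313 ± 76.7 CPM in normal astrocytes, with adjusted p of 0.012 against GNPs and 4.65e-05 against normal (edgeR). Without GNP replicate 3, 0 chaperones fell against GNPs, and the differences were -1.20 for Hspa5 (adjusted p 0.103) and -1.73 for Hsp90b1 (adjusted p 0.054, edgeR), against -1.48 and -1.62 with it. That leaves 1 GNP sample, which is assumed to vary like the other groups.

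Among 15 tested EF-hand proteins of the secretory pathway and matrix outside the family, 4 rose and 0 fell against tumor GNPs (median 0.02), with 0 falling also at an unadjusted p under 0.05 and in DESeq2. With 12 separate libraries, 5 rose and 1 fell of 14 tested. Against normal astrocytes 5 rose and 3 fell (median -0.06). Fkbp10, a prolyl isomerase of the ER that acts on collagen, averaged 62.0 ± 13.3 CPM in tumor-derived astrocytes (SD, n = 4), 5.18 ± 3.1 CPM in tumor GNPs (SD, n = 2) and 8.16 ± 1.91 CPM in normal astrocytes (SD, n = 4), with adjusted p of 0.00434 against GNPs and 0.000451 against normal (edgeR). Cgref1 had a log2 difference of 5.77 ± 1.1 from GNPs, adjusted p 0.00879 (edgeR). Its GNP mean, 0.329 ± 0.415 CPM (SD, n = 2), lay near the floor of 3 counts per library (0.306 to 0.324 CPM). The tumor-derived mean was 16.5 ± 5.51 (SD, n = 4), so Cgref1 was higher there, but the size of its rise is poorly measured. Spock1, a matrix proteoglycan, had a log2 difference of -4.01 ± 0.45 from normal astrocytes, adjusted p 8.45e-05 (edgeR).

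Of 15 tested calcium pumps and channels of the ER and Golgi, 0 rose and 9 fell against normal astrocytes (median -2.72), with 0 rising also at an unadjusted p under 0.05 and in DESeq2. Atp2a2, the main pump that fills the ER with calcium, averaged 56.0 ± 24.6 CPM in tumor-derived astrocytes (SD, n = 4), 106 ± 23.3 CPM in tumor GNPs (SD, n = 2) and 1210 ± 560 CPM in normal astrocytes (SD, n = 4), adjusted p 3.85e-05 against normal (edgeR). The pump gene Atp2a3 fell by 6.57 ± 0.55 (log2), with an adjusted p of 2.8e-05 (edgeR). Mature neuron markers, Itpr1 among them, were likewise lower in tumor-derived than in normal astrocytes, and their part was not tested. Against tumor GNPs 2 rose and 1 fell (median 0.30). Atp2a3 and Itpr3 were at 0 in every GNP library and were at least 3.25-fold and at least 4.46-fold higher in tumor-derived astrocytes, at a floor of 3 counts per library, with adjusted p of 0.00529 and 0.0383 (edgeR). The sums of neuron markers (1060 to 1910 CPM in tumor-derived astrocytes, 165 to 285 CPM in tumor GNPs) and of microglia markers (652 to 909 CPM in tumor-derived astrocytes, 1.35 to 6.81 CPM in tumor GNPs) were likewise higher than in GNPs, and their part was not tested.

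The collagen list, 16 genes tested, had 2 that rose and 0 that fell against tumor GNPs (median -0.29), with 3 falling at an unadjusted p under 0.05 and 0 in DESeq2. Against normal astrocytes 0 rose and 2 fell (median 0.36), with 1 rising at an unadjusted p under 0.05 and 1 in DESeq2. Bmp1, a procollagen protease, averaged 296 ± 86.2 CPM in tumor-derived astrocytes (SD, n = 4), 107 ± 16.1 CPM in tumor GNPs (SD, n = 2) and 425 ± 95.9 CPM in normal astrocytes (SD, n = 4), adjusted p 0.0255 against GNPs (edgeR). Pcolce, which enhances that protease, differed from GNPs by 6.21 ± 1.43 on the log2 scale, adjusted p 0.0203 (edgeR). Its GNP mean, 0.26 ± 0.219 CPM (SD, n = 2), lay below the floor of 3 counts per library (0.306 to 0.324 CPM). The tumor-derived mean was 18.9 ± 3.85 (SD, n = 4), so Pcolce was higher there, but the size of its rise is poorly measured. Mural cell and fibroblast markers were higher too, at 53.8 to 135 CPM in tumor-derived astrocytes and 4.75 to 34.0 CPM in tumor GNPs, and their part in these rises and in that of Fkbp10 was not tested. P4ha1, a prolyl hydroxylase subunit, and Mia3, which helps to export collagen, differed from normal astrocytes by -2.88 ± 0.46 and -1.48 ± 0.46, adjusted p 0.000909 and 0.0287 (edgeR).

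The vitamin K list, with which calumenin is linked, had 9 genes tested. Against tumor GNPs 0 rose and 0 fell (median 0.36), with 0 rising and 1 falling at an unadjusted p under 0.05 and 0 of either in DESeq2. Ggcx, the carboxylase itself, differed by 1.19 ± 1.09 (adjusted p 0.513) and Pros1 by -3.19 ± 1.44 (adjusted p 0.173) in edgeR. With 12 separate libraries Pros1 passed (adjusted p 0.0319, edgeR). Pros1 averaged 0.745 ± 0.653 CPM in tumor-derived astrocytes (SD, n = 4), not far above the floor of 3 counts per library (0.288 to 0.374 CPM). In tumor GNPs it averaged 6.35 ± 3.99 CPM (SD, n = 2). Against normal astrocytes 0 rose and 2 fell (median 0.47), with 1 rising at an unadjusted p under 0.05 and 1 in DESeq2. These were Gas6, a carboxylated ligand (-2.75 ± 0.7, adjusted p 0.0117), and Vkorc1l1, a vitamin K reductase (-1.65 ± 0.53, adjusted p 0.0325, edgeR).

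Retrieval to the ER runs through KDEL receptors and the COPI coat, of which 16 genes were tested. Against tumor GNPs 0 rose and 0 fell (median -0.67), with 1 rising and 5 falling at an unadjusted p under 0.05 and 1 and 1 in DESeq2. Kdelr2 missed the threshold narrowly, with 16.8 ± 4.24 CPM in tumor-derived astrocytes (SD, n = 4), 77.6 ± 1.31 CPM in tumor GNPs (SD, n = 2) and an adjusted p of 0.0508 (edgeR). Kdelr2 passed in 6 of 18 alternatives, among them 12 separate libraries (0.00726, edgeR) and DESeq2 (0.015), and did not pass in the rest. Copz1, a small coat subunit, leaned upward without passing, with a log2 difference of 0.95 ± 0.31 and an adjusted p of 0.0699 (edgeR). Its GNP mean was 264 ± 61.1 CPM (SD, n = 2). Copz1 passed with 12 separate libraries (0.00216, edgeR), with DESeq2 (0.0194) and with only the 2 groups fitted (0.0212, edgeR). Against normal astrocytes 1 rose and 2 fell (median -0.09). Copz1 rose to 534 ± 67.3 CPM in tumor-derived astrocytes, against 202 ± 57.6 CPM in normal astrocytes (SD, n = 4 each), adjusted p 0.00136 (edgeR). Copg1 fell by 1.74 ± 0.27 (log2), with an adjusted p of 0.000673 (edgeR).

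Several of these calls rest on few libraries. Of the 8 named list genes called against tumor GNPs, 7 were no longer called with GNP libraries 1, 2 and 4 left out (adjusted p 0.0714 to 0.256) and 5 without GNP replicate 3 (0.054 to 0.133). Each setting leaves 1 GNP sample, assumed to vary like the other groups. The log2 differences moved less than the calls, with 3.08 for Fkbp10, against 3.54, and 1.33 for Bmp1, against 1.40, when libraries 1, 2 and 4 were left out. Itpr3 and Bmp1 were also lost without tumor-derived replicate 2 or 3, Itpr3 without replicate 4, and Bmp1 with library size as the only scaling (0.06). Of the 12 called against normal astrocytes, 10 held with each library left out in turn, and the exceptions were Mia3 (0.0579 to 0.0818 without tumor-derived replicate 2, 3 or 4 or normal replicate 1 or 3) and Vkorc1l1 (0.0554 to 0.0933 without tumor-derived replicate 1, 2 or 3 or normal replicate 1 or 3). Vkorc1l1 was also lost with upper quartile factors (0.0554) and with no filter on low counts (0.076). Many list counts moved as well, and the following are examples. Against tumor GNPs, 6 pumps and channels rose and 3 fell with 12 separate libraries, against 2 and 1 in the main fit. There 5 collagen list genes rose and 3 fell, against 2 and 0. With only the 2 groups fitted, 1 KDEL receptor or COPI gene rose and 5 fell, against 0 and 0. EF-hand genes that rose against normal numbered 3 without tumor-derived replicate 3, and those that fell 1 without replicate 4.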

How the data were processed

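RNA was measured in 12 libraries, 4 each of tumor-derived astrocytes, tumor GNPs and normal astrocytes. The authors deposited raw counts of reads for each gene. Per the submitters' processing notes, reads were examined with FastQC and aligned with STAR to mm10. The sources used here do not name the counter, its annotation or its use of strand. Of 47284 lines, 767 repeats were dropped, leaving 46517 genes, and 27 symbols turned into dates were restored by identifier. The deposited gene lengths were not used to scale levels.

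Groups follow the cell type label. GNP libraries 1, 2 and 4 were summed, and 10 samples were fitted as 3 group means in edgeR 4.0.16 (R 4.3.3, limma 3.58.1) with TMM scaling, filterByExpr (minimum count 10, total 15), the quasi-likelihood F-test, 7 residual degrees of freedom and Benjamini-Hochberg adjustment over 16374 genes, called at 0.05. A gene of the family counted as called against GNPs only if the fit of 12 separate libraries (14393 genes) called it too. DESeq2 1.42.0, other scalings, filters and left-out libraries were alternatives, and scaling without ribosomal protein genes was chosen after seeing the data. The code was tested on simulated data. CPM levels use TMM factors over all 12 libraries. The genes of the family and the gene lists were chosen with earlier results of these data known. Named genes are the family, the 3 genes nearest to each member (5 for Rcn1) and, per list, the 2 with the smallest p in each tumor-derived contrast, and 1 gene that this rule names is not reported here.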

Additional observations from a re-analysis of the deposited data

Results flagged for a closer look

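Only tumor-derived and normal astrocyte libraries were examined for a library far from the others, since the GNP libraries count as 2 samples. No gene of the family was flagged among them. Of 48 such groups of 4 libraries, 3 held 1 library far from the others, where chance flags about 1 in 20. All were list genes in tumor-derived astrocyte replicate 1. Atp2a2 was at 92.9 CPM there against 43.2 to 44.2 CPM in the other 3 libraries, Pcolce at 13.2 CPM against 20.2 to 21.6 CPM, and Mia3 at 24.1 CPM against 10.8 to 11.7 CPM.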

How the results depend on the processing

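The Rcn1 difference between tumor-derived astrocytes and tumor GNPs kept its sign and side of the threshold in all 18 alternatives (adjusted p 0.227 to 0.845, edgeR or DESeq2). Rcn3 kept its sign and passed in 2, with log2 differences of 2.92 (12 separate libraries) and 2.57 (only the 2 groups), over a range of adjusted p of 0.00891 to 0.59. Rcn2 turned to 0.12 with 12 libraries and ranged from -0.61 to 0.39 with 1 library left out. With library size only, Calu turned to -0.20 and Sdf4 to -0.19, where the median of all genes moved to -0.27, against 0.06. The cause was not tested. Sdf4 in GNPs minus normal was 0.55 with GNP libraries 1, 2 and 4 left out, 0.80 with upper quartile factors and 0.64 to 0.84 with 1 library left out.

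Genes called between tumor-derived astrocytes and GNPs numbered 1617, against 4752 with 12 libraries, 184 with GNP libraries 1, 2 and 4 left out, 3464 with DESeq2, 4495 with only the 2 groups and 495 to 1624 with 1 library left out. Of these 1084 were higher and 533 lower, and with library size only 812 and 1001. Between GNPs and normal astrocytes there were 3951, against 6356, 2059 and 1947 (12 libraries, 1, 2 and 4 left out, 2 groups) and 2488 to 4242. No paired analysis was possible because the labels give no replicate numbers shared between groups.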

Other observations

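Tumor GNPs against normal astrocytes gave these list counts in edgeR at an adjusted p under 0.05. Of all genes, 24.1% were called there (12.5% higher, 11.6% lower). The chaperone and collagen counts are near that share, so nothing is read from them. Of 15 calcium pumps and channels, 0 rose and 7 fell (0 rising at an unadjusted p under 0.05 and 0 in DESeq2). The vitamin K list had 0 that rose and 1 that fell of 9 (1 and 1 in DESeq2). For KDEL receptors and the COPI coat, 1 rose and 1 fell of 16 (3 and 2 in DESeq2). Of 20 ER chaperones and foldases, 2 rose and 3 fell (1 without GNP replicate 3), and of 15 EF-hand proteins outside the family, 3 rose and 4 fell. The collagen list had 1 that rose and 3 that fell of 16 (1 that fell without GNP replicate 3).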
